A study of Xenopus laevis with 22 samples.

Results

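The regions described here are 3306 E2f4-GFP peaks that were found in Xenopus laevis animal caps without Multicilin, shared no base with any peak found with Multicilin, and lay within 1 kb of a transcript start. They are 3306 of 15693 peaks in the set without Multicilin, and the set with Multicilin held 12778. Membership was decided by position alone. A peak counted when its nearer edge was at most 1000 bases from the start of 1 of the transcript targets that carry a position in the expression tables, and no expression value was used. For both peak sets the labels give 6 h, stage 16, 22 °C and 300 caps per condition. They record no inducing treatment for the caps without Multicilin. In each condition 2 biological replicates were pooled before peaks were called. There is therefore 1 pooled sample per condition, and no difference between the 2 peak sets can be tested.

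Animal caps are explants of frog embryonic ectoderm. The E2f4-GFP caps had been injected with E2F4-GFP RNA alone, and the reference caps of that experiment with E2F4-GFP and MCIDAS-HGR RNA. MCIDAS-HGR encodes Multicilin fused to a hormone-binding domain of the human glucocorticoid receptor, which dexamethasone switches on. The labels record 20 µM dexamethasone for caps with an inducible construct and none for the caps with E2F4-GFP RNA alone, so in the peak sets dexamethasone and Multicilin cannot be told apart. The RNA libraries came from caps injected with MCIDAS-HGR and a dominant-negative E2f4 (dnE2f4 caps) and from caps injected with MCIDAS-HGR alone (Multicilin caps), each taken 3, 6 and 9 h after induction at 22 °C with 3 replicates of 20 pooled caps (embryonic stages 13, 16 and 18). Multicilin was switched on in both. No RNA library lacked Multicilin, so the effect of Multicilin itself on the targets was not measured here. All injected RNAs act in whole caps, and a cap is a mixture of ectodermal cell types.

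E2f4 is a DNA-binding protein of the E2F family. With the pocket proteins p107 and p130 and the MuvB proteins it forms complexes that keep cell-cycle genes silent in cells that have left the cycle. Multicilin, a coiled-coil protein that does not bind DNA on its own, joins E2f4 and its partner Dp1 in cells that become multiciliated, where the complex turns on genes for building many centrioles.

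The library labels were first checked on e2f4, which the dnE2f4 RNA adds to. At 6 h e2f4 stood at 6634, 4427 and 3518 CPM (counts scaled to the library's total) in the dnE2f4 libraries, against 20.9, 29.3 and 35.3 CPM in the Multicilin libraries. At 9 h the pair labelled replicate 2 went against its labels, with 14.2 CPM in the library labelled dnE2f4 and 1427 CPM in the library labelled Multicilin. Both were left out. The libraries labelled dnE2f4 replicate 1 at 3 h and dnE2f4 replicate 3 at 9 h list 35532 other targets and were not joined, so dnE2f4 caps had 2 libraries at 3 h and 1 at 9 h. The 18 libraries held 9159519 to 38099850 estimated fragments. Of the ectoderm markers, 8 of 8 were measured, with a summed level at 6 h of 6816 to 7313 TPM (a level scaled for transcript length and library total) in dnE2f4 caps and 6024 to 7140 TPM in Multicilin caps. Neural markers, 4 of 5 measured, summed to 68.6 to 71.9 TPM in dnE2f4 caps and 139 to 141 TPM in Multicilin caps. Mesoderm markers summed to at most 5.26 TPM, and endoderm markers to 3.86 to 12.6 TPM in dnE2f4 caps and 1.71 to 4.41 TPM in Multicilin caps. The part of these marker levels in the results below was not tested. In such bulk samples, fewer cells of a type and less RNA per cell cannot be told apart.

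The start-proximal peaks found only without Multicilin were 197 bases wide at the median and sat close to the start. Their centres lay a median of 53.5 bases downstream of it, and 120.5 bases away in either direction. In shared peaks, those overlapping a peak found with Multicilin, the distance was 102 bases over 3211 peaks, and in the 1520 start-proximal peaks found only with Multicilin it was 192.5 bases. The start itself lay inside 1434 of the peaks found only without Multicilin (43.4%), against 48.9% of shared peaks and 31.1% of peaks found only with Multicilin. A single start was within reach of 3114 of them, and 192 (5.81%) had starts on both strands within 1 kb, against 6.54% of shared peaks. These positions are descriptions of 1 pooled sample per condition, on the JGIv7b scaffolds.

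**Figure D1:**
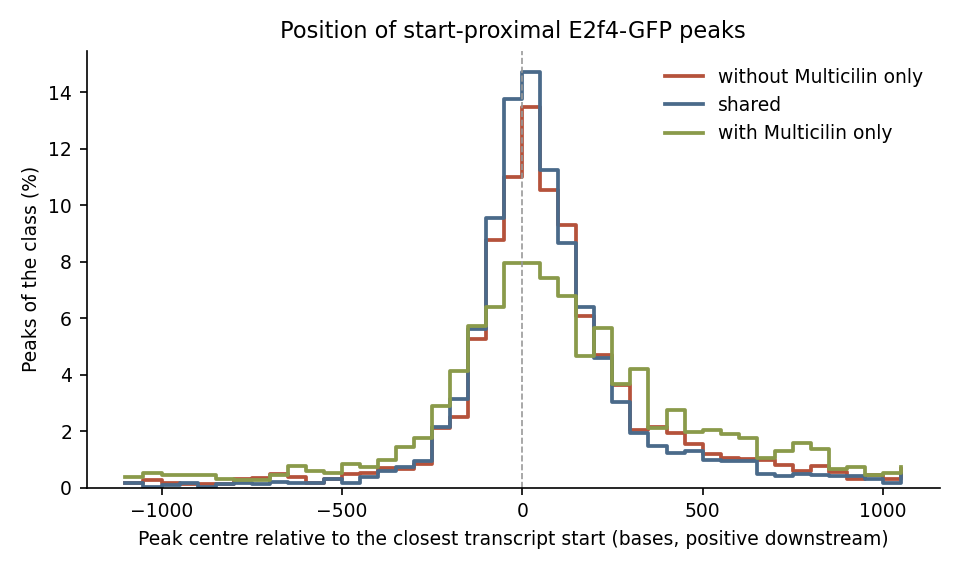
Percentage of start-proximal peaks (vertical axis) by the distance of the peak centre from the closest transcript start in bases (horizontal axis, positive downstream), in bins of 50 bases, for peaks found without Multicilin only (3306), shared (3211) and with Multicilin only (1520). The 3 classes all peak at the start, and peaks found with Multicilin only spread the widest, with a median distance of 192.5 bases.

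The 5 named peaks closest to a start had their centres on it. They belonged to srsf12, a splicing regulator, with the peak at scaffold 131887 (11460 to 11656), to vamp7, a membrane fusion protein, at scaffold 50694 (443674 to 443870), to ccdc138, a centrosomal protein in human cells, at scaffold 17127 (4762879 to 4763075), to inpp5f, a phosphoinositide phosphatase, at scaffold 20641 (275113 to 275309), and to c15orf40 at scaffold 13576 (8461 to 8657). The gaps from these peaks to the closest peak found with Multicilin ran from 32248 to 384349 bases. Of the 5 genes ccdc138 alone passed the test for dnE2f4 at 6 h, with 52.0, 37.9 and 45.9 TPM in dnE2f4 caps against 81.2, 80.5 and 96.8 TPM in Multicilin caps, groups that did not overlap (log2 fold change of -1.01 ± 0.20, adjusted p = 0.0198, edgeR). vamp7 had a log2 fold change of 0.54 ± 0.23 (adjusted p = 0.262), which passed with the replicate number as a block within the 6 h libraries (adjusted p = 0.00803). c15orf40 was near 0 and was not tested.

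Most of the 3306 peaks had no neighbour in the other set. The median gap to the closest peak found with Multicilin was 41431 bases, 55 peaks had none on their scaffold, and 423 (12.8%) had one within 500 bases. At the edge of the rule, peaks near tcf19, ddx3x and poc5 missed a neighbour by 1 base and were counted, whereas peaks near elovl2, tspan13 and rplp2 shared 1 base and were not. There were 108 member peaks with a gap of 1 to 50 bases, and 173 shared peaks with an overlap of 1 to 50 bases. On the distance side, the farthest peaks counted lay 1000, 997 and 994 bases from the starts of gltscr1l, calca and cxadr, and the closest ones not counted lay 1002, 1003 and 1004 bases from those of ddx3x, rtn3 and hist2h2ab.

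The 2 peak sets rest on unequal numbers of tags. Per the file headers there were 24997566 tags without Multicilin and 15313243 with it, of which 442844 and 254381 lay in peaks, an immunoprecipitation efficiency of 1.77% and 1.66%. The tag count a peak had to reach was 13 without Multicilin and 11 with it. Tag numbers and Multicilin cannot be told apart as the source of a difference between the sets, and the deposited score, 1 for every peak, gives no height to compare.

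The classes also lay apart in the order of the deposited list. Start-proximal peaks found only without Multicilin made up 12.6% of the start-proximal peaks in the top 10% of the list and 86.4% in the last 10%, and the share was higher in each successive step of 10%. Their median place was 54.2% down the list, against 21.4% for shared peaks. The headers do not say what the list was ordered by. Over the 5927 peaks that overlap a peak of the other set, places in the 2 lists correlated at a Spearman rho of 0.638, given as a description since both lists come from the same loci. The place is used here only to describe.

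**Figure D2:**
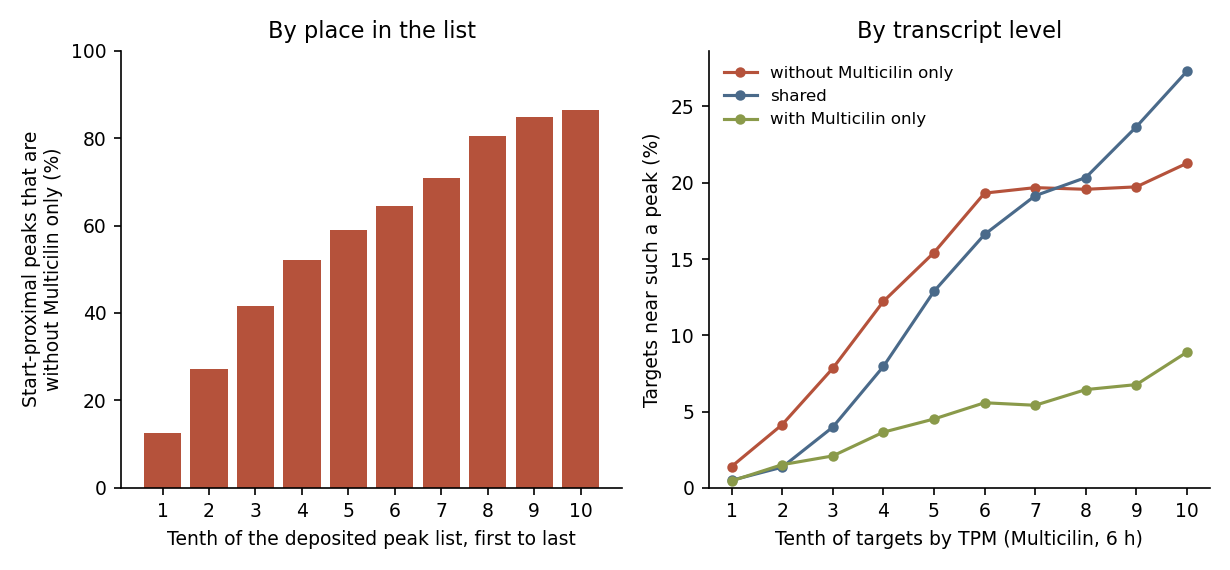
Left, percentage of start-proximal peaks of the set without Multicilin that were found only there (vertical axis), in steps of 10% down the deposited list (horizontal axis), which runs from 12.6% to 86.4%. Right, percentage of targets that start near a peak of each class (vertical axis), in steps of 10% of all targets ranked by mean TPM in Multicilin caps at 6 h (horizontal axis, low to high), where the share near peaks found only without Multicilin lies at 19.3 to 21.3% from the sixth step on while the share near shared peaks goes on to 27.3%.

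The peaks lay near the starts of 3428 targets with 3025 gene symbols, or 14.1% of all targets. Of these, 2936 had no peak found with Multicilin within 1 kb. The other 492 had one as well (that is, E2f4-GFP was also called within 1 kb of the same start when Multicilin was present). For this count it did not matter whether that peak overlapped another peak found without Multicilin. For comparison, 3261 targets (13.4%) started near shared peaks and no member peak, 1105 near peaks found only with Multicilin, and 16589 near none.

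Xenopus laevis carries most genes in a pair of copies. Of the member symbols, 1828 had 2 targets. In 275 both were members, in 415 the other target started near a shared peak, in 135 near a peak found only with Multicilin, and in 1003 near none. Among 901 of those 1003 pairs with a target at 1 TPM or more, the member target was the higher one in 529 (58.7%). Set against a copy near a shared peak, the member target was the higher one in 169 of 399 pairs (42.4%). Fragments that match both copies had been shared out by the authors' software, so levels of close copies are uncertain.

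The member genes were mostly transcribed. At 6 h in Multicilin caps 3000 of the 3428 targets (87.5%) had at least 1 TPM, against 93.6% of targets near shared peaks and 66.3% of all targets, and 401 (11.7%) had at least 100 TPM. The median was 11.0, 11.3 and 9.35 TPM in the 3 Multicilin libraries, and 12, 12.4 and 11.4 TPM in the 3 dnE2f4 libraries. Within a library, the member median was 2.77 ± 0.0335 times the median of all (SD, n = 3 Multicilin libraries). Targets near shared peaks stood higher, at a median of 16.5 TPM over the mean of the libraries against 10.6 TPM for members, and targets near no peak stood at 1.53 TPM.

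The 6 most abundant members were led by a keratin and a tubulin. krt12, a keratin, had 10520, 9857 and 10340 TPM in dnE2f4 caps at 6 h and 10250, 8671 and 9515 TPM in Multicilin caps, with overlapping groups. tubb2b, a beta-tubulin, had 5530, 3470 and 4421 TPM in dnE2f4 caps and 7284, 5919 and 6447 TPM in Multicilin caps, where the groups did not overlap. The other most abundant members were hmgn2 and hmgb2, chromatin proteins of the high mobility group, tubb4b, the beta-tubulin of ciliary axonemes, and cirbp, an RNA-binding protein, of which the lowest single value in Multicilin caps was 2480 TPM, for cirbp. Of these 6 genes, hmgn2 alone passed the test for dnE2f4 described below. tubb2b and tubb4b had log2 fold changes of -0.66 and -0.68 (adjusted p = 0.102 and 0.186, edgeR) that did not pass, and that passed with the replicate number as a block, both over the 14 libraries (adjusted p = 0.00179 and 0.0252) and within the 6 h libraries (adjusted p = 5.35e-05 and 0.00539). krt12 was the only one of the 6 with no peak found with Multicilin within 1 kb of its start.

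Without the replicate number as a block, few members were called with dnE2f4 at 6 h, in both directions (more with it, as given below). Of 3347 member targets that passed the filter on low counts, 41 were higher and 52 lower in dnE2f4 caps at an adjusted p under 0.05 (edgeR quasi-likelihood test, Benjamini-Hochberg over 20043 targets). Over all targets tested, 3.44% were called, 0.868% higher and 2.57% lower. The members' 1.22% higher was above the share over all targets, and their 1.55% lower was below it. Whether these shares differ was not tested. Among the 2863 tested with no peak found with Multicilin near the start, 34 were higher and 34 lower, 1.19% each. Among the 484 tested with such a peak, 7 were higher and 18 lower (3.72%). Targets near shared peaks had 22 higher and 216 lower of 3225 (6.70%), and those near peaks found only with Multicilin 8 higher and 38 lower of 1074 (3.54%).

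**Figure D3:**
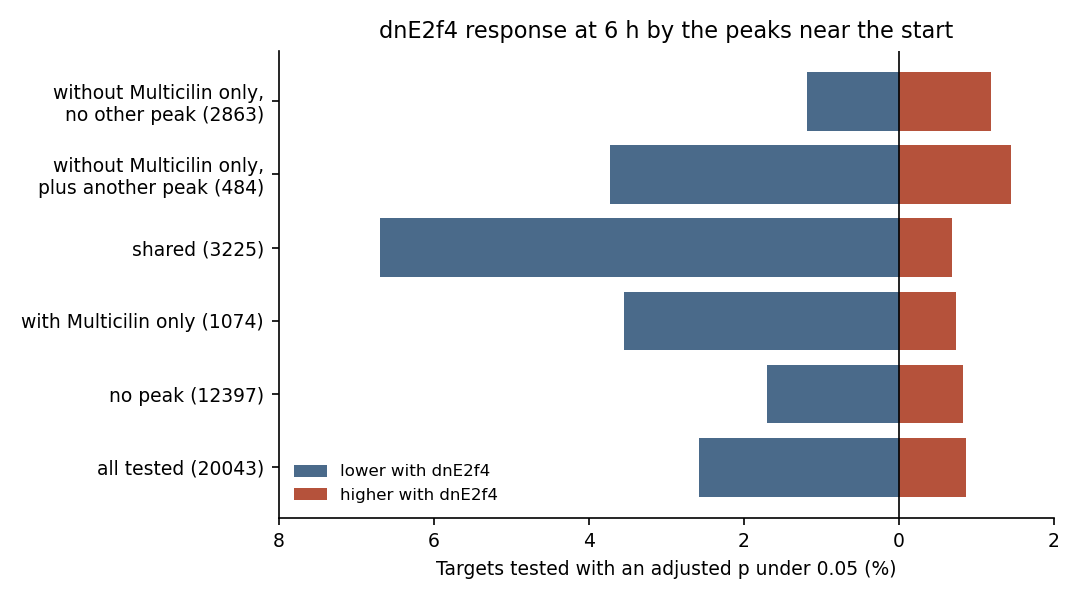
Percentage of tested targets that were lower (bars to the left) or higher (bars to the right) in dnE2f4 caps than in Multicilin caps at 6 h, at an adjusted p under 0.05, by the peaks within 1 kb of the start, with the number tested in brackets. Targets with a peak found only without Multicilin and no other have bars of 1.19% on each side, and targets near shared peaks have 6.70% lower and 0.682% higher.

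The median log2 fold change, dnE2f4 over Multicilin, was 0.08 over the members, 0.03 over all targets and -0.04 over targets near shared peaks. No test of the difference between the classes was made. The classes differ in level, as given above, and the part of level in the share of calls was not tested. Split by place in the list, cut into 3 equal parts, members in the top part had 10 higher and 20 lower of 861 targets, against 14 higher and 176 lower of 2160 for shared peaks in the same part. In the last part members had 13 higher and 14 lower of 1160, against 3 higher and 8 lower of 236 for shared peaks.

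These counts depend on how the libraries were modelled. Libraries with the same replicate number deviated together at 6 h. With the replicate number as a block 330 members were higher (9.86%) and 223 lower (6.66%). Over all targets 7.01% were higher and 8.91% lower in that fit (15.9% called). The block within the 6 h libraries alone gave 426 higher (13.3%) and 311 lower (9.71%), against 10.2% and 13.8% of all targets (24% called). Scaling to library size alone moved the median of all targets up by 0.09. It gave 70 higher (2.09%) and 42 lower (1.255%), against 1.48% and 1.92% of all targets. DESeq2 called 210 of the 3347 members, 2.75% higher and 3.53% lower, against 7.03% of all targets, 1.96% higher and 5.07% lower. Leaving out Multicilin replicate 3, dnE2f4 replicate 2 or dnE2f4 replicate 3 left 25, 33 and 38 members called. The share of all targets called in those fits is not given here. Putting the pair opposite to its labels back left 0 members called, with 296 of 3330 at an unadjusted p under 0.05 in edgeR. That fit also called 0 of all 19567 targets, with 1904 at an unadjusted p under 0.05.

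Of the 15 called members with the largest fold change, 12 were lower with dnE2f4. kcna4, a voltage-gated potassium channel, had 0.845, 1.84 and 1.15 TPM in dnE2f4 caps, against 8.04, 15.2 and 13.0 TPM in Multicilin caps. Every dnE2f4 library lay below every Multicilin library, and the log2 fold change was -3.33 ± 0.41 (SE, adjusted p = 0.0016, edgeR). Its start had both a peak found without Multicilin, at scaffold 74352 (5118305 to 5118501), and, 249 bases from that, one found with it.

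foxn4, a forkhead transcription factor that acts in multiciliated cells of Xenopus, was called in both of its copies. The copy on scaffold 143664 had 52.4, 55.9 and 53.1 TPM in dnE2f4 caps, against 155, 202 and 208 TPM in Multicilin caps. The copy on scaffold 44061 had 94.6, 73.9 and 80.5 TPM in dnE2f4 caps, against 221, 276 and 289 TPM in Multicilin caps. Neither copy's groups overlapped, with log2 fold changes of -1.90 ± 0.18 (adjusted p = 0.000395) and -1.75 ± 0.19 (adjusted p = 0.000746). The centres of their member peaks, at 1565639 to 1565835 and at 1833856 to 1834052, lay 818 and 793 bases downstream of the starts, with a peak found with Multicilin within 1 kb of the start as well.

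Among lower members with no peak found with Multicilin near the start, n4bp3, which encodes a protein that binds Nedd4 ligases, had 3.51, 2.94 and 2.49 TPM in dnE2f4 caps, against 8.85, 13.8 and 10.3 TPM in Multicilin caps. agtpbp1, a carboxypeptidase that trims glutamates from tubulin tails, had 6.07, 5.75 and 4.33 TPM in dnE2f4 caps, against 15.6, 16.9 and 15.2 TPM in Multicilin caps. The groups of both genes stood apart, with log2 fold changes of -1.94 ± 0.27 (adjusted p = 0.0027) and -1.62 ± 0.21 (adjusted p = 0.00186). The n4bp3 peak was at scaffold 100253 (2585910 to 2586106), with its centre 41 bases upstream of the start, and the agtpbp1 peak at scaffold 13576 (654388 to 654584), 130 bases downstream.

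The groups also stood apart for dip2a, with 9.81, 7.67 and 7.05 TPM in dnE2f4 caps against 23.2, 26.3 and 22.7 TPM in Multicilin caps, and a log2 fold change of -1.64 ± 0.31. So they did for dner, a transmembrane protein related to Notch ligands, with 5.40, 6.92 and 8.94 TPM in dnE2f4 caps against 14.9, 21.3 and 19.9 TPM in Multicilin caps, and -1.5 ± 0.31. mtmr7, a phosphoinositide phosphatase, was called at a level under 1 TPM in every library at 6 h, with a log2 fold change of -1.96 ± 0.35. Of the named members with both kinds of peak, ypel1 fell by 1.88, yaf2, a subunit of Polycomb repressive complex 1, by 1.59, ebpl, a homologue of a sterol isomerase, by 1.56 and cep44, a centriole protein, by 1.40 on the log2 scale, each with groups that did not overlap.

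The members highest with dnE2f4 were led by sdc1, ier5l and auts2. sdc1, which encodes the cell-surface proteoglycan syndecan, had 5.57, 9.11 and 5.62 TPM in dnE2f4 caps, against 1.16, 3.57 and 1.73 TPM in Multicilin caps. ier5l, a relative of an immediate early gene, had 58.6, 86.3 and 66.2 TPM in dnE2f4 caps, against 18.5, 33.0 and 17.8 TPM in Multicilin caps. In both genes every dnE2f4 library was above every Multicilin library, with log2 fold changes of 1.57 ± 0.36 (adjusted p = 0.0352) and 1.5 ± 0.23 (adjusted p = 0.00424).

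auts2, which in mammals acts with a Polycomb complex, had 2.87, 3.88 and 1.95 TPM in dnE2f4 caps, against 0.952, 1.29 and 0.900 TPM in Multicilin caps, a log2 fold change of 1.38 ± 0.25 (adjusted p = 0.0121). These 3 had no peak found with Multicilin within 1 kb. For ier5l there was none on the whole scaffold (394936, peak at 87466 to 87662), and for sdc1 the closest was 2121 bases from its peak at scaffold 93416 (2152367 to 2152563).

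**Figure D4:**
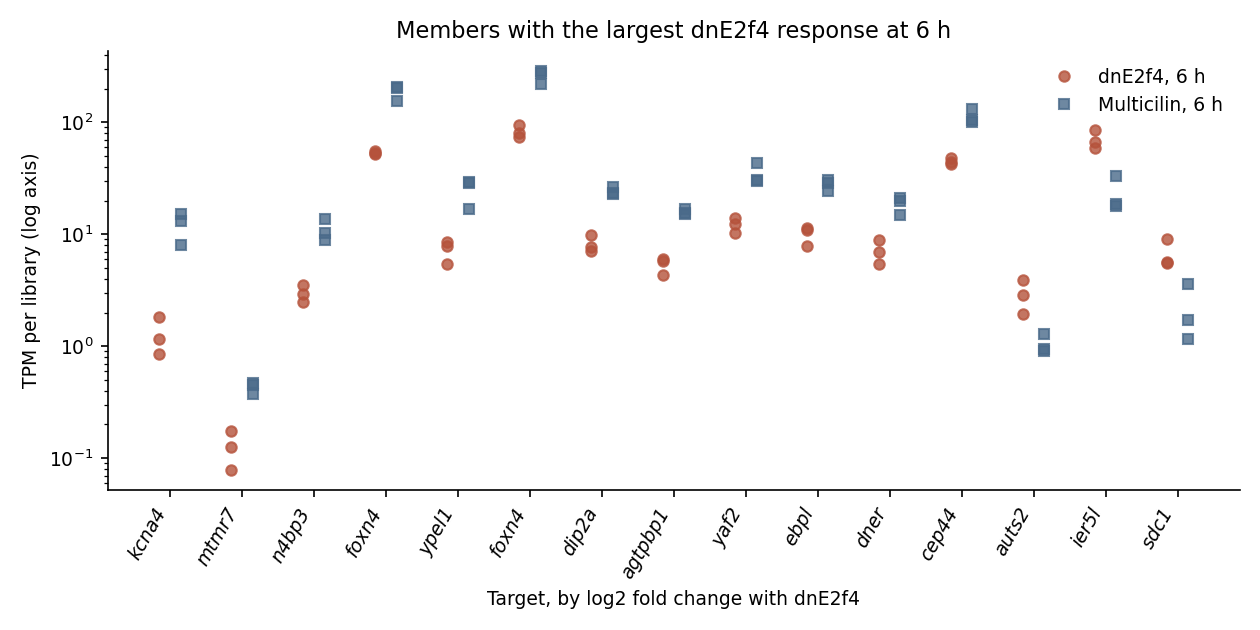
TPM in each library at 6 h (vertical axis, log scale) for the 15 named members with the largest dnE2f4 response (horizontal axis, by log2 fold change), with dnE2f4 caps as circles and Multicilin caps as squares beside them. In all 15 targets the 3 circles and the 3 squares do not overlap, and sdc1, ier5l and auts2 are the 3 with the circles above. The 15 were chosen by their call and fold change in these same libraries, so the separation is no separate support.

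The 2 directions differed in level and in course over time. Lower members had a median of 35.9 TPM in Multicilin caps at 6 h and higher members 8.14 TPM. Over all targets called at 6 h the medians were 46.2 TPM for lower and 8.89 TPM for higher ones. The same Multicilin libraries entered the calls, so the difference in level is a description only. In Multicilin caps, 35 of the 52 lower members were higher at 9 h than at 3 h and 6 were lower, whereas 0 of the 41 higher members rose and 34 fell. Over all targets called at 6 h the counts were 421 higher and 38 lower of 516, and 13 higher and 131 lower of 174, which is the same direction of split as in the members. The log2 fold change at 3 h had the same sign as at 6 h in 48 of the 52 lower members and 39 of the 41 higher ones. That count was not made over all targets, so it is a description only.

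By gene list, the share of members among cell-cycle and centriole genes lay near the 14.1% over all targets. It was 17.4% for replication, 16.5% for mitosis and 12.3% for centriole assembly. Of 109 targets for DNA replication and the entry into S phase, 19 were members and 67 lay near shared peaks. For mitosis the counts were 28 members and 85 shared of 170, and for centriole assembly 13 members and 60 shared of 106. Of the 10 lists that are not cell type markers, those with more members than shared targets were mitochondrial genes (27 members, 13 shared, of 93) and genes of RNA processing and translation (43 members, 42 shared, of 136). DNA repair had 17 members of 65, chromatin genes 23 of 88, axoneme genes 12 of 99, genes of intraflagellar transport and the transition zone 10 of 77, and regulators of multiciliated cells 9 of 42. These counts stand beside 14.1% members and 13.4% shared over all targets, and no test was made of them.

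Of the 19 replication members, 2 were lower at 6 h and none higher, with a median log2 fold change of -0.24. tyms, thymidylate synthase, had 2.48, 3.44 and 2.67 TPM in dnE2f4 caps, against 5.79, 5.86 and 6.84 TPM in Multicilin caps. dut, which clears dUTP, had 29.1, 28.7 and 30.8 TPM in dnE2f4 caps, against 43.5, 50.3 and 52.4 TPM in Multicilin caps. Neither gene's groups overlapped, with log2 fold changes of -1.20 ± 0.21 (adjusted p = 0.00926) and -0.81 ± 0.18 (adjusted p = 0.0266), and the closest peaks found with Multicilin were 224650 and 99151 bases from theirs. cdc25a, a phosphatase that activates cyclin-dependent kinases, and mcm4, a subunit of the replicative helicase, had log2 fold changes of -0.70 ± 0.22 and -1.01 ± 0.35 that did not pass without the block. They passed with it over the 14 libraries (adjusted p = 0.0105 and 0.00185, edgeR) and within the 6 h libraries (adjusted p = 0.000278 and 0.000373), where 7 replication members were lower and 0 higher. In that fit 10.2% of all targets were higher and 13.8% lower, shares that also stand beside the block counts of the lists below.

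Of the 28 mitosis members 1 was higher at 6 h, and none lower, with a median of 0.22. It was kif22, a chromosome kinesin, with 16.9, 12.3 and 14.8 TPM in dnE2f4 caps, against 7.26, 6.30 and 8.48 TPM in Multicilin caps, and a log2 fold change of 0.90 ± 0.16 (adjusted p = 0.0112). Its groups did not overlap. By uniquely assigned counts kif22 did not reach the filter on low counts and was not tested. It lost its call in the fit of the 6 h libraries alone without the block. kif23, a kinesin of the midbody, zw10, a kinetochore protein, and plk1, a mitotic kinase, had log2 fold changes of 0.67, 0.98 and -0.82, which did not pass without the block and passed with it, over the 14 libraries and within the 6 h libraries. In the fit of the 6 h libraries with the block 9 mitosis members were higher and 3 lower.

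Of the 13 centriole members 3 were lower and none higher, with a median of -0.40, and of the 60 near shared peaks 40 were lower, with a median of -0.91. cep97, which caps centrioles together with CP110, had 38.2, 36.8 and 42.7 TPM in dnE2f4 caps, against 60.9, 64.2 and 65.2 TPM in Multicilin caps. ssx2ip, a protein of centriolar satellites, had 21.1, 18.1 and 19.0 TPM in dnE2f4 caps, against 33.6, 40.9 and 48.8 TPM in Multicilin caps. Both had separate groups, with log2 fold changes of -0.78 ± 0.15 (adjusted p = 0.0176) and -1.18 ± 0.21 (adjusted p = 0.00931), and the closest peaks found with Multicilin were 38122 and 165963 bases from theirs. The other was cep44, and tubgcp5, a subunit of the gamma-tubulin ring complex, had a value of -1.02 ± 0.34 with an adjusted p of 0.14, and of 6.52e-05 with the block within the 6 h libraries. In that fit 2 centriole members were higher and 7 lower.

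Of the 12 axoneme members 2 were lower, with a median of -0.34, and of the 21 near shared peaks 1 was lower, with a median of -0.41. dnaaf2, a factor for assembly of dynein arms, had 247, 176 and 202 TPM in dnE2f4 caps, against 372, 298 and 307 TPM in Multicilin caps. lrrc6, another assembly factor, had 132, 116 and 122 TPM in dnE2f4 caps, against 168, 160.5 and 180.1 TPM in Multicilin caps. The log2 fold changes were -0.73 ± 0.15 (adjusted p = 0.0179) and -0.55 ± 0.14 (adjusted p = 0.0474), with separate groups, and the call on lrrc6 was lost when scaling to library size (-0.45). None of the 10 members of intraflagellar transport and the transition zone passed, with a median of -0.40. Of the 17 targets of that list near shared peaks 3 were lower, also with a median of -0.40. With the block within the 6 h libraries 9 of the 10 members were lower, in a fit where 13.8% of all targets were lower. Among the 9 were wdr19, kif3b, ift57 and tmem107 (log2 fold changes of -0.74, -0.41, -0.43 and -0.58). The same held for nme7 (-0.75) in the axoneme list, where 9 were lower with that block.

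Among the regulators the calls were the 2 copies of foxn4. lin52, a subunit of MuvB, had 20.8, 22.3 and 26.7 TPM in dnE2f4 caps, against 33.3, 28.1 and 27.9 TPM in Multicilin caps, a log2 fold change of -0.43 ± 0.20 that did not pass (adjusted p = 0.298). mcidas itself had a member peak 726 bases upstream of its start, at scaffold 52441 (12590391 to 12590587), and 1107, 825 and 1042 TPM in dnE2f4 caps against 1264, 1230 and 1460 TPM in Multicilin caps (adjusted p = 0.151 without the block and 0.000548 with it within the 6 h libraries). Its RNA had been injected in all of these caps, so endogenous and injected transcripts cannot be told apart.

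Of 23 chromatin members 1 passed, hmgn2, with 1741, 1857 and 2039 TPM in dnE2f4 caps, against 2765, 3121 and 3554 TPM in Multicilin caps, and a log2 fold change of -0.85 ± 0.20 (adjusted p = 0.0427). Its groups did not overlap. ezh2, the Polycomb methyltransferase, anp32a, a histone-binding protein, and chd1, a chromatin remodeller, had -0.40, 0.45 and 0.36, which did not pass without the block. With it ezh2 and anp32a passed over the 14 libraries (adjusted p = 0.0176 and 0.00211), and all 3 passed within the 6 h libraries, where 3 chromatin members were higher and 5 lower. Members on the lists for RNA processing and translation (43), mitochondria (27) and repair (17) had no call in edgeR without the block. Their medians were 0.06, 0.01 and 0.13. The lists do not hold every gene of these functions. Called members outside them included ncbp1, a cap-binding protein, in 2 targets (0.63 and 0.78), and ndufab1, a mitochondrial protein (-1.01). The smallest p of each of these lists belonged to nop58, a nucleolar protein, with a log2 fold change of 0.32 ± 0.15, to mrpl28, a mitochondrial ribosomal protein, with 1.09 ± 0.33, and to fancl, a ubiquitin ligase of the Fanconi pathway, with 0.69 ± 0.33 (adjusted p = 0.327, 0.0998 and 0.335, edgeR). With the block within the 6 h libraries mrpl28 passed (adjusted p = 0.031, edgeR), as the 1 member of the mitochondrial list called. In that fit 2 members of the list for RNA processing and translation were higher and 0 lower, and 0 of the repair list were called.

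At 3 h 3 members were called, all lower, against 0.284% of all targets called, 0.015% higher and 0.269% lower. They were the 2 copies of foxn4 (log2 fold changes of -1.57 ± 0.215 and -1.56 ± 0.21) and ebpl (-1.5 ± 0.239), each with a peak found with Multicilin near the start as well. The 2863 tested members with no such peak had 0 calls in edgeR, with 151 at an unadjusted p under 0.05. Over all 20043 targets 1442 were at an unadjusted p under 0.05. In DESeq2 these 2863 members had 34 calls, 0.105% higher and 1.08% lower, against 2.01% of all targets, 0.0948% higher and 1.92% lower. The block gave 13 higher (0.388%) and 67 lower (2.00%) of all 3347 tested members, against 0.294% and 2.8% of all targets. Without Multicilin replicate 3 the count was 27, and without Multicilin replicate 2 it was 0. The calls were also lost when either dnE2f4 library was left out, which left 1 in that group. The share of all targets called in these fits is not given here. The difference between the responses at 6 h and 3 h passed for none of the 3347 members in edgeR, with 145 at an unadjusted p under 0.05. Over all 20043 targets it passed for 1, with 827 at an unadjusted p under 0.05.

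At 9 h 11 members were higher and 23 lower, against 0.215% and 0.918% of all targets (1.13% called), on a single dnE2f4 library whose spread was taken from the other groups. Among members called at 9 h the log2 fold change was largest downward for kcna4 (-3.83 ± 0.711) and yaf2 (-2.63 ± 0.306). Upward the log2 fold change was largest for usp15 (4.57 ± 0.958), which the rules for named genes did not pick. Of the named members, auts2 was the one called higher, at 3.43 ± 0.394. It had 2.46 TPM in the dnE2f4 library against 0.259 and 0.146 TPM in the Multicilin libraries. plk1 was called in both of its copies (-1.89 ± 0.346 and -1.82 ± 0.358), and cep97 and cep44 were lower again (-1.18 ± 0.241 and -1.95 ± 0.331). The count was lower without Multicilin replicate 3, a fit that left 1 library in each group at 9 h. The share of all targets called in that fit is not given here. Scaling to library size moved the median of all targets up by 0.166 and gave 27 higher and 14 lower, against 0.464% and 0.654% of all targets. With the replicate number as a block 376 members were called, against 10.9% of all targets, and DESeq2 called 169, against 5.28%.

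In Multicilin caps the member genes changed with time about as often as other genes, more of them downward. Targets near shared peaks leaned the same way, with 30.9% higher, 42.5% lower and a median of -0.32 between 3 and 9 h. Between 3 and 9 h 943 members rose and 1323 fell of 3347, against 33.4% higher and 32.8% lower over all targets (66.1% called). The member median was -0.27 and the median of all -0.00106 on the log2 scale. From 3 to 6 h 699 rose and 1083 fell (all targets 25.7% and 26.4%, 52.1% called), and from 6 to 9 h 443 rose and 643 fell (all targets 14.3% and 14.5%, 28.8% called). Scaling to library size moved the median of all targets by -0.455 between 3 and 9 h and gave 614 higher and 1707 lower members, against 24.5% and 42.8% of all targets. The same scaling gave 501 higher and 1432 lower from 3 to 6 h (all targets 19.6% and 35%) and 267 higher and 936 lower from 6 to 9 h (all targets 9.42% and 21.2%). With the block 1702 members were called between 6 and 9 h in place of 1086, against 45.9% of all targets. Fewer than 1086 were called without Multicilin replicate 1 at 9 h, which left 1 library in that group. The share of all targets called in that fit is not given here.

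Members of the cilium lists rose and those of the division lists mostly fell. Of 12 axoneme members 11 were higher at 9 h than at 3 h and 1 lower, of 10 members of intraflagellar transport and the transition zone 9 were higher, and of 13 centriole members 8 were higher and 3 lower. Of 19 replication members 15 were lower and 1 higher, of 28 mitosis members 18 lower and 6 higher, of 23 chromatin members 16 lower and 2 higher, and of 43 for RNA processing and translation 28 lower and 6 higher. Of 60 centriole targets near shared peaks 48 were higher and 5 lower, and of 67 replication targets 60 were lower and 1 higher. Scaled to library size, the same member lists had 11, 9 and 7 targets higher and 1, 1 and 4 lower for axoneme, transport and centrioles, and 17, 20, 19 and 32 lower for replication, mitosis, chromatin and RNA processing.

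lrrc6 had 35.9, 34.5 and 25.5 TPM at 3 h, 168, 160.5 and 180.1 TPM at 6 h, and 265.5 and 271 TPM at 9 h. wdr19, a subunit of the intraflagellar transport A complex, had 13.7, 12.4 and 6.44 TPM at 3 h, 96.3, 89.2 and 94.5 TPM at 6 h, and 177 and 159 TPM at 9 h. Both rose at each step with no overlap between times, by 3.52 ± 0.16 and 4.37 ± 0.23 between 3 and 9 h on the log2 scale.

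The largest rises by fitted log2 fold change were those of gbx2, a homeobox gene, eml6, a microtubule-binding protein (7.91 ± 0.23), dner (6.98 ± 0.44), agtpbp1 (6.93 ± 0.27) and cdc25a (6.79 ± 0.29). gbx2 was at 0.184 and 0.285 TPM and near 0 in the libraries at 3 h and had 50.2 and 32.5 TPM at 9 h, and no fold is given for it. eml6 had 1.36, 1.82 and 1.18 TPM at 3 h, 93.5, 109.6 and 85.1 TPM at 6 h, and 291 and 244 TPM at 9 h. cdc25a, of the replication list, was the member of that list that rose, with 11.6, 8.65 and 5.18 TPM at 3 h, 273, 208 and 257 TPM at 6 h, and 686.5 and 731 TPM at 9 h.

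The largest falls were in genes that were already low, pdgfra, a growth factor receptor, dio3, a thyroid hormone deiodinase, maneal, pax6 and foxf1, all under 5 TPM at 3 h and near 0 at 9 h. Among abundant members anp32a had 4111, 4606 and 4985 TPM at 3 h, 915, 981 and 919.5 TPM at 6 h, and 119 and 123 TPM at 9 h, a log2 fold change of -4.89 ± 0.21. mcm4 had 25.4, 35.0 and 41.1 TPM at 3 h, 3.17, 5.35 and 5.71 TPM at 6 h, and 1.16 and 1.10 TPM at 9 h. Neither gene's times overlapped. krt12, by contrast, rose, with 4417, 3631 and 3838 TPM at 3 h and 13360 and 12900 TPM at 9 h (adjusted p = 3.17e-08, edgeR).

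**Figure D5:**
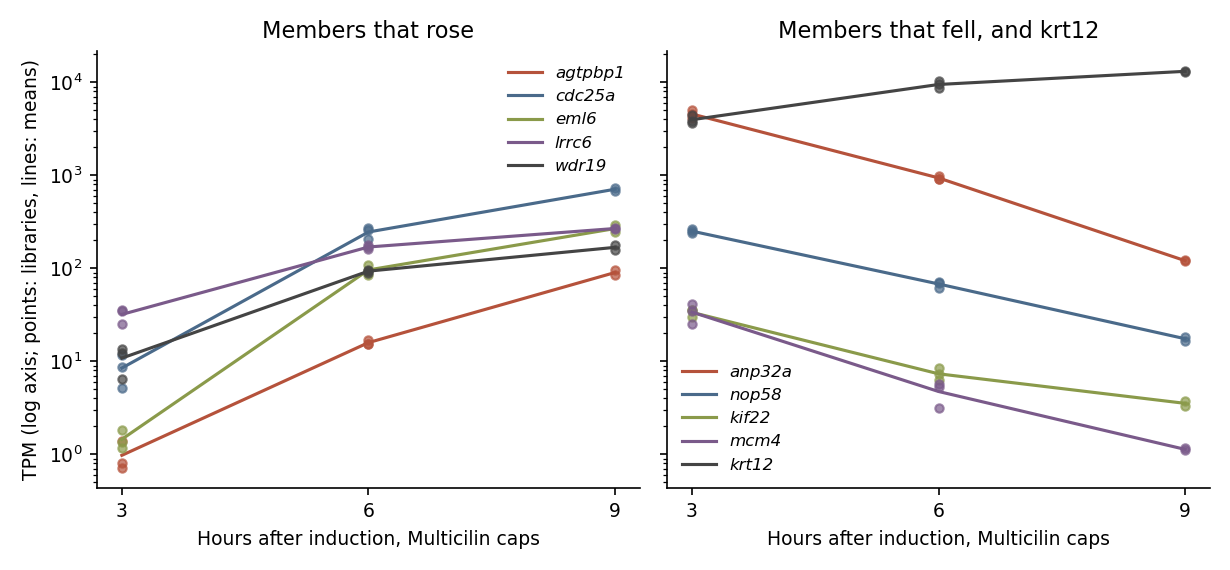
TPM in each Multicilin library (vertical axis, log scale) by hours after induction (horizontal axis), for named members, with points for libraries (3 at 3 h, 3 at 6 h, 2 at 9 h) and lines through the means. Left, agtpbp1, cdc25a, eml6, lrrc6 and wdr19, which rose between 3 and 9 h. Right, anp32a, nop58, kif22 and mcm4, which fell, and krt12, which rose by 2.12 on the log2 scale.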

How the data were processed

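Animal cap RNA was measured by RNA-seq and E2f4-GFP binding by ChIP-seq. The submitters' processing notes name STAR, eXpress, DESeq, Bowtie2, Bowtie and HOMER, without parameters. Per the file headers, the deposited RNA tables give, per target, estimated counts, uniquely assigned counts, TPM and FPKM made by the authors from non-stranded poly-A libraries. FPKM was used only as an alternative for the level ratio. The deposited peak lists hold positions on JGIv7b scaffolds and a score that is 1 throughout, called per the file headers on pooled replicates at a false discovery rate of 0.001 and 4-fold over input and local signal. Target starts came from target names. No genome of that build was used here, so peak sequences are not analysed here.

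Estimated counts were rounded and fitted with edgeR 4.0.16 in R 4.3.3 (TMM scaling, filterByExpr, robust quasi-likelihood F test, Benjamini-Hochberg over 20043 targets, threshold 0.05) in 1 model of 14 libraries. ± marks a standard error unless SD is stated. Residual spread came from all groups, so a group of 1 library borrows it from the others. Values per library are deposited TPM. DESeq2 1.42.0, library-size scaling, uniquely assigned counts, 16 libraries, single times, other distances and overlaps, leaving out each library, and the replicate number as a block were alternatives. Scripts were tested on simulated data.

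The replicate numbers pair libraries at 6 h, where the labels call them biological replicates and deviations from the group means correlated at 0.68, 0.424 and 0.463 in pairs with the same number and at -0.503 to 0.175 in others. At 3 h the same-number correlations were 0.162 and 0.278. No pair of replicates compared within a group agreed within sampling noise. Pairs across groups, and the libraries that list other targets, were not compared in this way. Nothing states that replicates came from separate clutches, so p-values measure the spread between these samples.

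Named genes are the 15 called members with the largest fold change at 6 h, the 6 most abundant, up to 4 of each gene list by the smallest p at 6 h, the 5 largest rises and 5 largest falls between 3 and 9 h, the targets of the 5 peaks centred closest to a start, and e2f4. Members, lists and tests were chosen with earlier results of these data known. Overlap of groups at 6 h is given for genes chosen mostly by their values in the same libraries. The share of targets without overlap was not counted over all targets. Gene symbols are those in the tables, in lower case. Read counting error and depth limit low values, and e2f4 and mcidas include injected RNA.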

Additional observations from a re-analysis of the deposited data

Results flagged for a closer look

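The library labelled Multicilin replicate 2 at 9 h, which was left out of the comparisons, held e2f4 at 1427 CPM, against 14.1 and 14.4 CPM in the other Multicilin libraries of that time. It was listed because this is a signal in a library outside the main measurement, above the level in the libraries of the same label. Its counterpart labelled dnE2f4 replicate 2 held 14.2 CPM, against 1471 and 1235 CPM in the other dnE2f4 libraries at 9 h. Whether labels or material were exchanged was not tested.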

How the results depend on the processing

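The number of start-proximal peaks found only without Multicilin (2883 to 3807 under other overlaps and distances), the level ratio (2.763 to 2.793) and the counts called between 3 and 6 h and between 3 and 9 h stayed within 1.5 times of the values given. The counts of members called with dnE2f4 did not. At 6 h (93) they were 210 with DESeq2 (all targets 7.03%), 50 in the 6 h libraries alone, 0 with 16 libraries (296 at an unadjusted p under 0.05), and 25 to 100 when 1 library was left out. At 3 h (3) they were 49 with DESeq2 (all targets 2.01%), 0 in the 3 h libraries alone (199 at an unadjusted p under 0.05), 0 with 16 libraries (115), 1 within 500 bases of a start, 0 with no peak found with Multicilin near the start, and 0 to 27 when 1 library was left out. At 9 h (34) they were 169 with DESeq2 (all targets 5.28%), 0 in the 9 h libraries alone (207), 0 with 16 libraries (13), and 4 to 43 when 1 library was left out. Between 6 and 9 h (1086) they ranged over 681 to 1013 when 1 library was left out. The cause was not tested. With 16 libraries 0 of all 19567 targets were called at 3 h and at 6 h. Of these, 871 and 1904 were at an unadjusted p under 0.05 in edgeR. In the 3 h libraries alone 2 of all 18414 targets were called, with 1411 at an unadjusted p under 0.05. With the replicate number as a block, 80, 553 and 376 members were called at 3, 6 and 9 h and 1702 between 6 and 9 h, and within the libraries of 1 time 190 at 3 h and 737 at 6 h. The share of all targets called is not given here for the 190 at 3 h or for the 50 in the 6 h libraries alone. Nor is it given for the fits that left out 1 library, so these counts are descriptions only. The block at 9 h alone, and the fit without the single dnE2f4 library at 9 h, could not be fitted. All 93 members called at 6 h were also called with the block within the 6 h libraries, a fit of the same libraries that called 24% of all targets. Of the named members, 6 lost their call in the 6 h libraries alone (mtmr7, sdc1, dut, kif22, dnaaf2 and lrrc6). Motif counts were not run. The pooled peak sets have no replicate, and low TPM values rest on few fragments.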
